A study of Homo sapiens with 6 samples.

Results

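The miR-17-92 cluster is a set of 6 miRNA hairpins cut from 1 primary transcript, MIR17HG, and 9 of the 413 miRNAs with values in these libraries are its mature products. They were chosen by name, as the products of hairpins 17, 18a, 19a, 20a, 19b-1 and 92a-1. The 9 comprise the 6 guide strands, which are the arms usually kept by Argonaute (hsa-miR-17-5p, hsa-miR-18a-5p, hsa-miR-19a-3p, hsa-miR-20a-5p, hsa-miR-19b-3p and hsa-miR-92a-3p, the prefix for human being left out below), and 3 passenger strands, miR-17-3p, miR-18a-3p and miR-92a-1-5p. RefSeq lists 12 mature products for these hairpins, and the other 3 (miR-19a-5p, miR-20a-3p and miR-19b-1-5p) were not analysed here. The small RNA libraries were made from MDA-MB-231, a cell line of human triple-negative breast cancer, after 24 h with 2 µM Withaferin A (WA), a steroidal lactone of Withania somnifera, or without it (n = 3 libraries each). The control cells are vehicle-treated (DMSO) in the study's methods and untreated in the sample labels, and are called vehicle here. The study sequenced 3 independent replicates per group of this single cell line, and every value below describes miRNA in a culture as a whole. By the study's methods the same amount of RNA from each sample went into its library. The values are thus relative to the other miRNAs of a library, and do not show cell number or RNA per cell.

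As background, the cluster is switched on by the transcription factors MYC and E2F and is best known as an oncogene of lymphoma and many carcinomas. Drosha cuts the hairpins from the primary transcript, Dicer releases the duplex, and 1 strand is loaded into Argonaute, where its seed, the bases from 2 to 8, pairs with target mRNAs. The miR-17 and miR-20a guides repress, among others, the cell-cycle inhibitor CDKN1A and the pro-apoptotic BCL2L11, and the hairpins can be processed to different extents although they share a transcript.

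The 6 hairpins lie on the plus strand of chromosome 13 in GRCh38, from 91350605 to 91351391, which is 787 bases, inside the long noncoding RNA gene MIR17HG (ENSG00000215417, from 91347686 to 91397592) of GENCODE release 44. Of the 16 annotated MIR17HG transcripts, 11 span each hairpin. An exon overlaps the hairpins of miR-17, miR-18a, miR-19a, miR-20a and miR-19b-1 in 3 of the 16 transcripts and that of miR-92a-1 in 5. In the spanning transcripts without such an overlap the hairpins are intronic. The mature sequences (RefSeq, GRCh38.p14, 5′ to 3′) are shown because their shared seeds and near-identity decide which reads can be told apart; the seed is in capitals.
miR-17-5p: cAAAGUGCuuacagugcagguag
miR-20a-5p: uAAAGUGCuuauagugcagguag
miR-18a-5p: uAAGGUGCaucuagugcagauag
miR-19a-3p: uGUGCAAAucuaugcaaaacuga
miR-19b-3p: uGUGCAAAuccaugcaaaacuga
miR-92a-3p: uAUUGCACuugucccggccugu
miR-17-3p: aCUGCAGUgaaggcacuuguag
miR-18a-3p: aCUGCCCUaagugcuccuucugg
miR-92a-1-5p: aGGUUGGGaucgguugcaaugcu

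The guides fall into 4 seeds. miR-17-5p and miR-20a-5p share AAAGUGC and differ at 2 of 23 bases (C1U and C12U, counted from the 5′ end with the first-named sequence first). miR-19a-3p and miR-19b-3p share GUGCAAA and differ at 1 base (U11C). miR-18a-5p (AAGGUGC) and miR-92a-3p (AUUGCAC) have a seed of their own within the cluster. The mature sequences of miR-19b-3p and miR-92a-3p are each encoded by 2 hairpins, the second on the X chromosome, so their reads cannot be assigned to MIR17HG alone. Of 10 products of that X-linked paralogous cluster, 1 had values here, miR-106a-5p, which differs from miR-17-5p only at its first base (C1A) and was low, between 0 and 90.9.

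Values are reads per miRNA divided by a size factor per library, called normalized values. Totals and percents of reads are over the 413 listed miRNAs. By the study's account the list is of miRNAs found in both groups. Some listed ones, miR-504-5p and miR-1910-5p among them, nevertheless had no reads in any WA library. Every total and background share here is over that list, however it was drawn up. Summed over these, reads ran from 710878 to 4778066 in the vehicle libraries and from 156442 to 2232934 in the WA libraries. WA replicates 1 and 2, with 156442 and 564882, were the shallowest and give the least precise values. WA replicate 3, with 2232934, was deeper than vehicle replicate 1, with 710878. A count of 0 allows up to 3 reads, or a normalized value of 17.4 in WA replicate 1, the shallowest library, and counting limits cover counting error only. The 5 miRNAs set as typical of MDA-MB-231 held 31.5 to 43.5% of the reads in the vehicle and 27.3 to 37.9% in the WA libraries, and the 4 listed members of the epithelial miR-200 family held at most 0.189% in any library. The 4 listed stromal miRNAs held 0.690 and 0.798% of WA replicates 1 and 2 and at most 0.00793% of the other libraries, 1 blood miRNA (miR-486-5p, of 6 set) held 0 to 0.0909%, the liver miRNA miR-122-5p held at most 0.00113%, and the part of these in the results was not tested. WA replicate 3 and vehicle replicate 1 differed most from the other libraries of their own group in miRNA composition (chi-square per degree of freedom 1926 to 3020, against 12.7 and 313 for the remaining pairs). This measure also grows with the number of reads. The 12.7 of WA replicates 1 and 2, the shallowest, thus cannot be set against the 313 of vehicle replicates 2 and 3. Values are therefore given library by library.

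The cluster was dominated by miR-92a-3p. This miRNA ranked 6, 15 and 11 among the 413 in vehicle replicates 1 to 3 and 17, 20 and 11 in WA replicates 1 to 3. Its normalized values were 45770.3, 19528 and 27685 in vehicle-treated cells and 11484, 11515 and 47895 in WA-treated cells. WA replicates 1 and 2 lay under every vehicle library and WA replicate 3 lay above all of them. The log2 fold change on log2(normalized value + 1) was -0.66 (standard error 0.84, 95% interval -2.62 to 1.31), and the limma adjusted p was 0.617. It was -1.34 without WA replicate 3 and between -0.33 and -0.31 without vehicle replicate 1, WA replicate 1 or WA replicate 2. It turned to 0.74 with a trend in GC content and each library's mean level removed together.

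**Figure D1:**
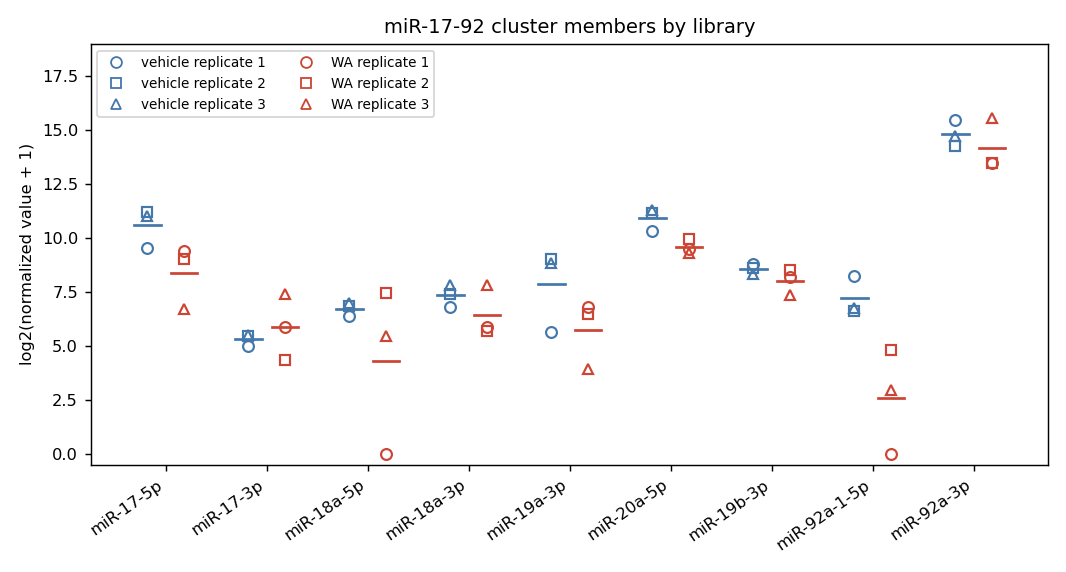
Normalized value of each of the 9 cluster members, as log2(normalized value + 1), in the order of the hairpins along MIR17HG. Each point is 1 library, its shape gives the replicate number, and short lines are group means (n = 3). miR-17-5p, miR-20a-5p and miR-92a-1-5p have every WA point under every vehicle point, and miR-18a-5p and miR-92a-1-5p lie at 0 in WA replicate 1.

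The guides with the AAAGUGC seed had all their WA values under all their vehicle values. miR-17-5p was at 745, 2372 and 2107 in vehicle replicates 1 to 3 and at 667, 518 and 104 in WA replicates 1 to 3. The gap between the lowest vehicle and the highest WA library was 1.12 times, so the groups are separated by little. The means were 1741 ± 873 (SD, n = 3) and 429.7 ± 291 (SD, n = 3), 4.05 times lower with WA. The log2 fold change was -2.22 (standard error 0.94) with an adjusted p of 0.182 by limma, which did not pass 0.05. Leaving out 1 library at a time gave -2.75 to -1.40, the latter without WA replicate 3. The fold change was -1.33 with a trend in GC content and each library's mean level removed together.

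miR-20a-5p, which shares the seed of miR-17-5p, was at 1275, 2303 and 2523 with vehicle and 713, 983 and 633 with WA. Its lowest vehicle value was 1.30 times its highest WA value. The means were 2034 ± 667 and 776 ± 183 (SD, n = 3 each), 2.62 times lower with WA, and the log2 fold change was -1.35 (standard error 0.62, limma adjusted p = 0.215).

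The miR-19 guides differed from each other although they share a seed and all but 1 base. miR-19a-3p was at 48.8, 529.8 and 466 in vehicle replicates 1 to 3 and 110.1, 89.3 and 14.3 with WA. The groups overlapped because vehicle replicate 1 lay under WA replicates 1 and 2. Its log2 fold change of -2.11 (limma adjusted p = 0.368) was -3.22 without vehicle replicate 1 (adjusted p = 0.148) and -1.20 without WA replicate 3 (adjusted p = 0.449), and the other libraries left out gave values between these. miR-19b-3p was at 439, 394 and 318 with vehicle and 296, 362.7 and 162 with WA. Its groups overlapped in a narrower range, at 384 ± 61.3 against 273 ± 102 (SD, n = 3), with a log2 fold change of -0.55 (standard error 0.74, limma adjusted p = 0.620). The log2 ratio of miR-19a-3p to miR-19b-3p was -3.14, 0.43 and 0.55 in the vehicle and -1.42, -2.01 and -3.41 in the WA libraries, so vehicle replicate 1 lay within the WA range.

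miR-18a-5p, the remaining guide, was at 82.6, 113 and 124.7 in vehicle replicates 1 to 3 and at 0, 177 and 42.8 in WA replicates 1 to 3. The WA libraries lay on both sides of the vehicle range. In reads the WA values were 0, 99 and 57, and 30.5 reads would have stood in WA replicate 1 at the level of WA replicate 2. Its log2 fold change of -2.42 (standard error 1.95, limma adjusted p = 0.444) rests on that 0 and was -0.27 without WA replicate 1.

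The passenger strands did not follow 1 course. miR-92a-1-5p, from the 5′ arm of the miR-92a-1 hairpin, was at 305, 97.1 and 106.4 in vehicle replicates 1 to 3 and at 0, 26.8 and 6.76 in WA replicates 1 to 3. All WA libraries lay under the vehicle libraries, the nearest values 3.62 times apart. The WA values rest on 0, 15 and 9 reads, against 225, 340 and 348 in the vehicle libraries, and the exact 95% Poisson intervals of WA replicates 2 and 3 end at 44.2 and 12.8, under all vehicle values. The means were 169 ± 117 and 11.2 ± 13.9 (SD, n = 3 each), 15.1 times lower with WA, or 9.97 times with the 0 set to 3 reads. The log2 fold change of -4.62 (standard error 1.53, 95% interval -8.18 to -1.06) was the largest of the 9 and ranked 41 among the 327 tested by size of decrease, with a limma adjusted p of 0.122. It was -3.10 with 10 added in place of 1 and -5.79 with 0.1 added, and leaving out 1 library at a time gave -5.73 to -3.33, the latter without WA replicate 1.

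miR-18a-3p was at 112, 168 and 227 with vehicle and 58.0, 50.03 and 225 with WA. WA replicates 1 and 2 lay under the vehicle range and WA replicate 3 inside it (log2 fold change -0.90, standard error 1.03, limma adjusted p = 0.595). miR-17-3p was at 31.2, 43.7 and 44.01 with vehicle and 58.0, 19.7 and 169 with WA, so the WA values lay on both sides of the vehicle range. Its log2 fold change of 0.56 (standard error 1.24, limma adjusted p = 0.769) was the only positive one, and was -0.20 without WA replicate 3.

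All 9 members passed the filter on low values, which asked for 10 or more in 3 or more libraries. By limma across the 327 miRNAs that passed, 0 of the 9 had an adjusted p under 0.05, where 5.5% of the tested miRNAs did, and their adjusted p ran from 0.122 to 0.769. At an unadjusted p under 0.05, 2 of the 9 were lower with WA (miR-17-5p and miR-92a-1-5p), beside 21.7% of the tested miRNAs, and 0 were higher, beside 4.59%. The groups did not overlap, with WA lower, for 3 of 9, beside 19.6% of the tested miRNAs, and the reverse for 0 of 9, beside 7.65%. Their log2 fold changes were below 0 for 8 of 9, beside 60.6%, with a median of -1.35 over the members and -0.91 over all tested. The shares of the members that were lower are thus read against a background in which most miRNAs were lower with WA on this scale. Without WA replicate 3, the library farthest from the others of the WA group, 1 member was lower at an adjusted p under 0.05 (miR-92a-1-5p, limma adjusted p = 0.0490), as were 35.2% of the tested miRNAs. With vehicle replicate 1 left out as well, 5 members were (miR-17-5p, miR-18a-3p, miR-19a-3p, miR-20a-5p and miR-92a-3p, at log2 fold changes from -2.31 to -1.02), as were 46.5% of the tested miRNAs.

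**Figure D2:**
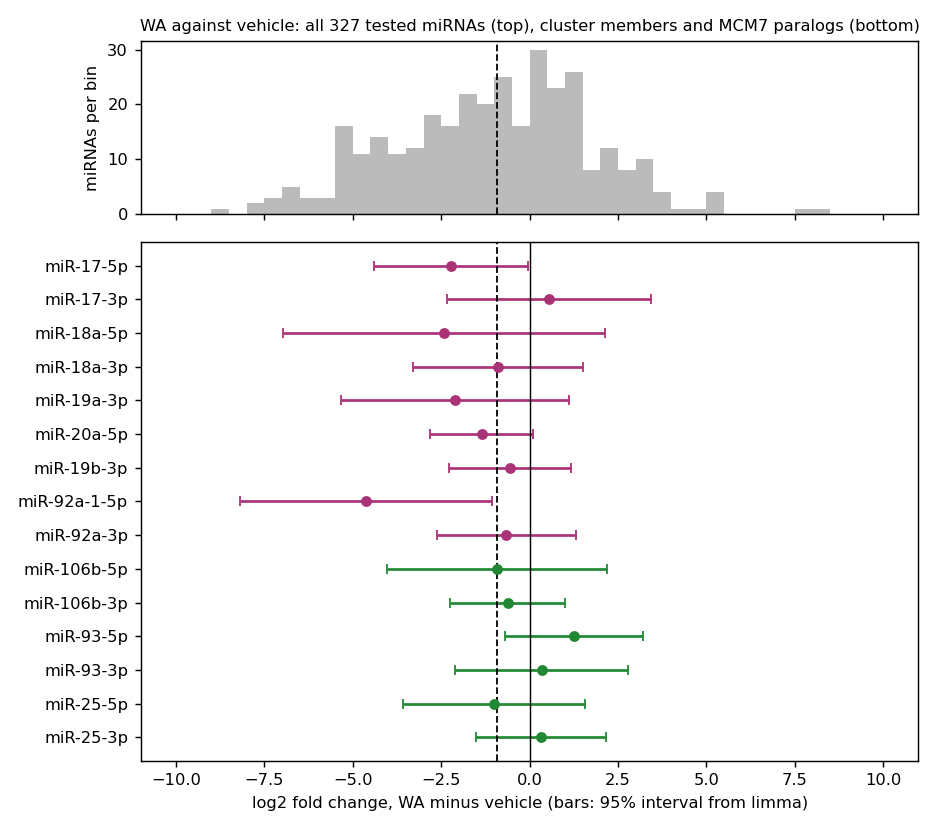
Log2 fold change of WA against vehicle. The top panel counts the 327 tested miRNAs in bins 0.5 wide, and the bottom panel gives the 9 cluster members (purple) and the 6 products of the paralogous MCM7 cluster (green) with 95% intervals from limma; the dashed line is the median of all tested, -0.91. The interval of miR-92a-1-5p lies farthest to the left, and the 6 paralogs lie on both sides of 0.

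The ratio of a hairpin's arms within a library compares products of the same precursor, apart from miR-92a-3p, and a ratio of reads does not depend on how libraries are scaled. With 1 added to each normalized value, as in the tests here, it does where an arm is at or near 0. The miR-92a-1 hairpin (RefSeq, GRCh38.p14, chr13:91351314-91351391, plus strand) is shown with both arms in capitals, the 5′ arm, miR-92a-1-5p, first.
MIR92A1: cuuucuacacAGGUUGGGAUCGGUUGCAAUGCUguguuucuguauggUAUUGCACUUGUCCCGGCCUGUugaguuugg
In vehicle replicates 1 to 3 there were 150.2, 201 and 260.3 reads of miR-92a-3p per read of miR-92a-1-5p. In WA replicates 2 and 3 there were 429.7 and 7083, and in WA replicate 1 there were 1981 reads of the 3p arm and 0 of the 5p arm. The groups did not overlap, with log2((5p + 1)/(3p + 1)) at -7.62 ± 0.39 in the vehicle and -11.59 ± 2.55 in the WA group (SD, n = 3 each). A two-sided exact permutation test gave p = 0.1, the lowest possible with 3 against 3 libraries. Adjusted over the 3 hairpins with both arms the exact permutation p was 0.3. The difference of -3.97 was -5.14 with 0.1 added and -2.45 with 10 added. The 3p reads include any from the X-linked hairpin, and the 5p reads of WA replicate 3 were 9, so the ratio is uncertain there.

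For miR-17 the guide was 23.9, 54.3 and 47.9 times its passenger in the vehicle libraries and 11.5, 26.4 and 0.618 times in the WA libraries. In WA replicate 3, with 139 reads of the 5p and 225 of the 3p arm, the passenger strand was thus the more abundant arm. The groups overlapped, since WA replicate 2 exceeded vehicle replicate 1 (exact permutation test, two-sided, p = 0.2, adjusted 0.3). For miR-18a the 3p arm was the more abundant in every vehicle library, at 1.36, 1.48 and 1.82 times the 5p arm, although the 5p arm is the one called the guide. In the WA libraries there were 0, 99 and 57 reads of the 5p arm and 10, 28 and 299 of the 3p arm, and the groups overlapped (exact permutation test, two-sided, p = 0.7, adjusted 0.7).

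**Figure D3:**
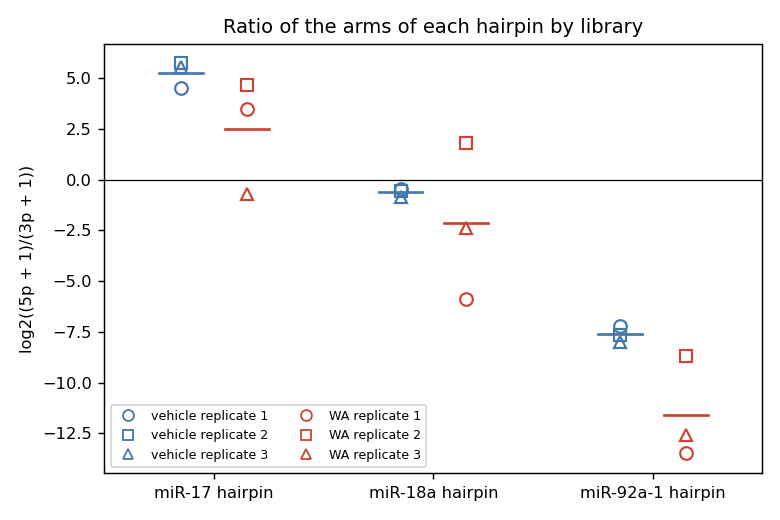
Ratio of the 5p to the 3p arm of the 3 hairpins for which both arms had values, as log2((5p + 1)/(3p + 1)) of normalized values. Each point is 1 library, and short lines are group means (n = 3). The WA points of the miR-92a-1 hairpin all lie under the vehicle points, and the miR-17 and miR-18a hairpins are spread widely in the WA group.

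Within the summed guide strands, miR-92a-3p held 94.6, 77.4 and 83.3% in vehicle replicates 1 to 3 and 86.5, 84.4 and 98.0% in WA replicates 1 to 3. The other 5 guides together thus had their largest share in vehicle replicate 2 and their smallest in WA replicate 3. The shares of miR-17-5p were 1.54, 9.40 and 6.34% in the vehicle and 5.02, 3.80 and 0.214% in the WA libraries, and the groups overlapped. The groups overlapped for all 6 guides (exact permutation test, two-sided, p from 0.3 to 1, adjusted p from 0.6 to 1 over the 6), a design in which the smallest p is 0.1. Summed over the 9 members, the cluster took 5.07, 1.87 and 2.62% of the reads of the vehicle libraries and 1.48, 1.36 and 2.94% of those of the WA libraries. Left without miR-19b-3p and miR-92a-3p, whose reads can come from the X chromosome, the other 7 took 0.270, 0.412 and 0.436% in the vehicle and 0.177, 0.185 and 0.0712% in the WA libraries. On that sum every WA library lay under every vehicle library, as it did for miR-17-5p and miR-20a-5p, its most abundant members.

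The closest comparison is with the paralogous cluster in an intron of MCM7, a replication licensing gene on chromosome 7, all 6 of whose products had values. Its guides that share a seed with the members are printed to show how near the sequences are, with the seed in capitals.
miR-106b-5p: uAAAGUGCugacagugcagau
miR-93-5p: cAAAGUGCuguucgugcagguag
miR-25-3p: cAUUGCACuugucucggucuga
miR-93-5p differs from miR-17-5p at 4 of 23 bases, miR-106b-5p from miR-20a-5p at 3 of the 21 compared, and miR-25-3p from miR-92a-3p at 4 of 22. The MCM7 cluster held 1.64, 1.36 and 1.65% of the reads of the vehicle libraries and 1.64, 1.75 and 3.30% of those of the WA libraries. Of its 6 products, 3 had a log2 fold change below 0, none had groups that did not overlap, and the limma adjusted p ran from 0.378 to 0.833. The median of the 6 was -0.15, against -1.35 for the 9 members.

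The AAAGUGC seed family had 5 listed miRNAs, the members miR-17-5p and miR-20a-5p with miR-106b-5p, miR-93-5p and miR-106a-5p. The cluster's pair held 18.2, 55.3 and 55.2% of the family's summed normalized value in vehicle replicates 1 to 3 and 16.7, 15.7 and 2.63% in WA replicates 1 to 3. Vehicle replicates 2 and 3 stood apart from the other 4 libraries, and vehicle replicate 1 lay only just above the highest WA library. The family as a whole was at 11112, 8460.2 and 8388 with vehicle and 8267, 9530.1 and 28008 with WA. miR-93-5p was at 8037, 3021 and 3199.6 with vehicle and 5676, 6802 and 27137 with WA, while miR-106b-5p was at 1027, 758 and 554 and at 1200.03, 1227 and 42.8. Of 9 same-seed ratios compared, those of miR-20a-5p to miR-93-5p and of miR-92a-3p to miR-92b-3p had groups that did not overlap (two-sided exact permutation test, p = 0.1 each, the lowest possible, adjusted 0.36). These 9 ratios were chosen after the values had been seen. The log2 ratio of miR-20a-5p to miR-93-5p was -2.66, -0.39 and -0.34 in the vehicle and -2.99, -2.79 and -5.42 in the WA libraries, so its separation at vehicle replicate 1 is narrow. miR-92b-3p, from chromosome 1, was at 14694, 2384 and 2937 in the vehicle and at 52.2, 80.4 and 2853 in the WA libraries. The AUUGCAC family of 4 (miR-92a-3p, miR-92b-3p, miR-25-3p and miR-32-5p) drew 60.0 to 70.2% of its summed value from miR-92a-3p in the vehicle and 60.5 to 64.3% in the WA libraries, with overlapping groups.

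**Figure D4:**
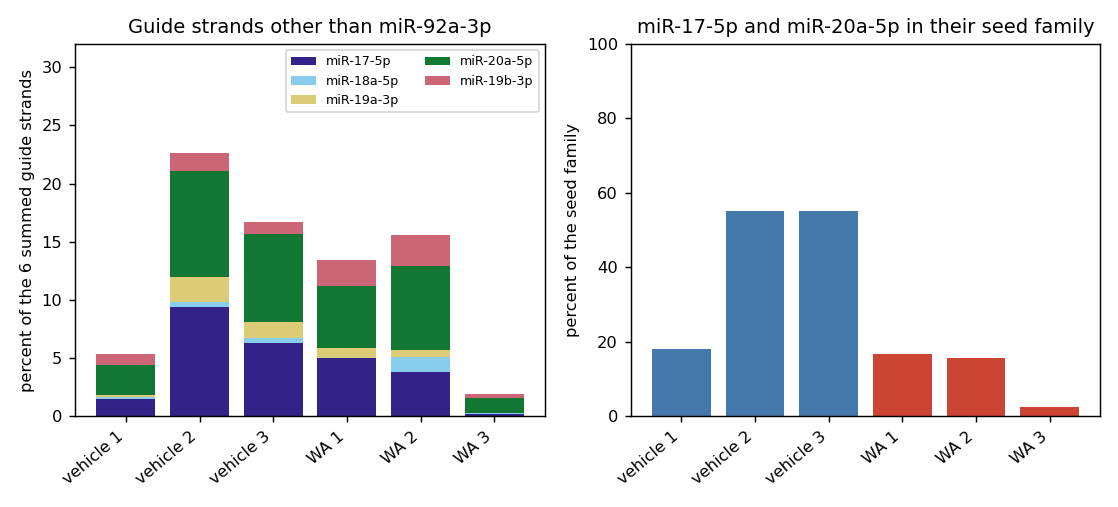
Left, percent of the 6 summed guide strands held by each guide other than miR-92a-3p, stacked, in each library. Right, percent of the AAAGUGC seed family (5 listed miRNAs) held by miR-17-5p and miR-20a-5p together. The right-hand bars stand at 55.3 and 55.2% in vehicle replicates 2 and 3, and at 18.2% or less in the other 4 libraries.

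The members did not share 1 profile over the libraries. Likeness was measured as the root mean square difference, over the 6 libraries, between log2 profiles each centred on its own mean. The closest pairs were miR-17-5p with miR-19a-3p (0.588), miR-18a-3p with miR-92a-3p (0.605) and miR-20a-5p with miR-19b-3p (0.623). The farthest was miR-17-3p with miR-92a-1-5p (3.29). Over the 36 pairs of members the median was 1.91, and over all pairs of the 327 tested it was 2.51. Among 318 other miRNAs, those nearest to the mean profile of the 6 guides were miR-331-3p (0.340), miR-320b (0.481), miR-484 (0.487), miR-423-3p (0.488) and let-7f-1-3p (0.616). For the nearest, miR-331-3p, the values were 631, 611 and 732 in the vehicle and 133, 256 and 149 in the WA libraries.

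Base composition moved with these profiles. GC content ran from 34.8% in miR-19a-3p and 39.1% in both miR-20a-5p and miR-19b-3p to 54.5% in miR-92a-3p and 56.5% in miR-18a-3p. Over the 9 members, the slope of the centred log2 value on GC content, per 10 percentage points, was 0.67 in vehicle replicate 1 and 1.21 in WA replicate 3. In vehicle replicates 2 and 3 it was -0.52 and -0.26, and in WA replicates 1 and 2 it was -0.51 and -0.60. The slope was thus positive in 1 library of each group. In WA replicate 3 the 4 members of at least 50% GC had a mean centred value of 0.46 and the 5 others one of -1.52, and in vehicle replicate 1 the values were 0.91 and 0.06. The 4 were far apart in WA replicate 3, from -1.94 in miR-92a-1-5p to 1.80 in miR-17-3p. Over the 295 tested miRNAs with a RefSeq sequence the slopes were 0.39, 0.28 and 0.44 in vehicle replicates 1 to 3 and -0.57, -0.55 and 0.01 in WA replicates 1 to 3. Removing that trend from each library also took out the library's mean level over the 295. The mean difference between groups over these miRNAs was thus removed by construction. The median log2 fold change moved from -0.91 over the 327 tested to 0.21 over the 295. That of the members moved from -1.35 to -1.10. The fold changes of miR-18a-3p and miR-92a-3p then turned positive, at 0.64 and 0.74, miR-17-3p was at 1.62, and the other 6 members remained negative, from -3.40 for miR-92a-1-5p to -0.30 for miR-19b-3p. How much of these shifts came from the trend and how much from the mean level was not tested. The part of base composition in the members' differences was not tested further.

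**Figure D5:**
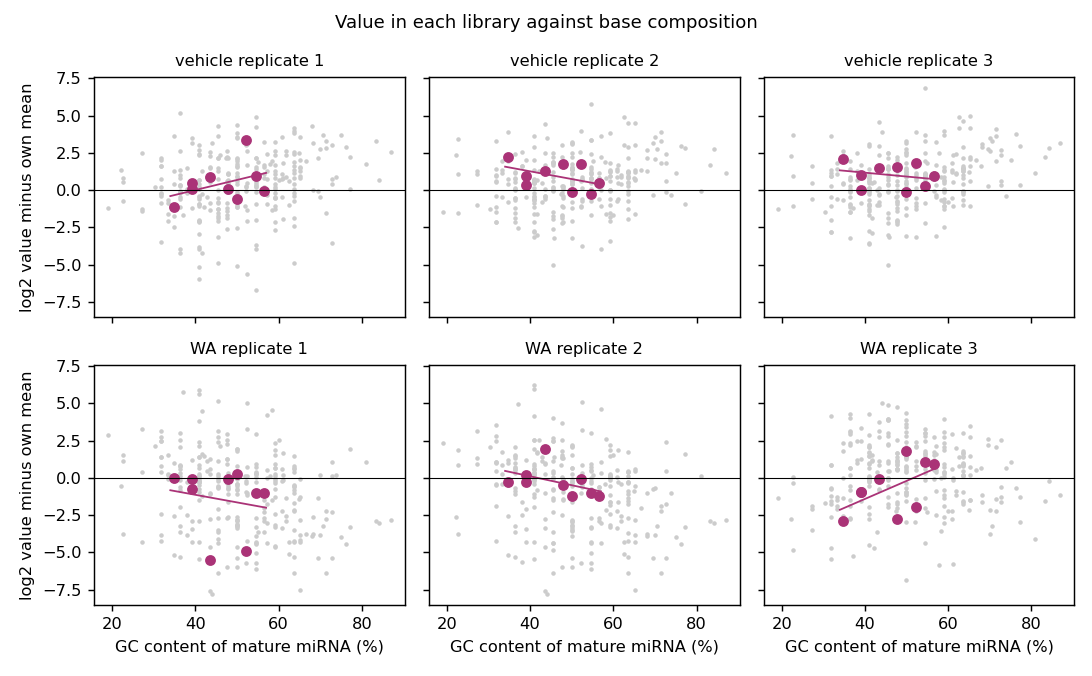
Log2(normalized value + 1) minus the miRNA's own mean over the 6 libraries, against the GC content of its mature sequence, 1 panel per library. Purple points and line are the 9 cluster members and their linear fit, and grey points are the other tested miRNAs with a RefSeq sequence. The purple line slopes upwards in vehicle replicate 1 and WA replicate 3 and downwards in the other 4 libraries.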

How the data were processed

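The 6 small RNA libraries of MDA-MB-231 cells, 3 per group, were used. According to the study's methods and the labels, the authors trimmed the reads (Trim Galore), aligned them with Bowtie to GRCh38.p10, set aside reads of other noncoding RNAs, assigned reads to known miRNAs and normalized with DESeq2. The deposited signal per miRNA is a read count divided by a size factor. How reads that fit several miRNAs were counted is not given in the sources used here. The fold ratio, log2 fold change and p-values of the authors' own comparison, also deposited, were not used.

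Per library, every value is an integer times 1 step (100% within a relative tolerance of 1e-06). The step times the median-of-ratios size factor recomputed from the steps was 1 in each library, which is so only when 1 step is 1 read, and reads are given on that basis. No replicates agreed within sampling noise.

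The groups were compared with limma 3.58.1 (R 4.3.3) on log2(normalized value + 1), with a variance trend, unpaired, two-sided, with Benjamini-Hochberg adjustment over the 327 miRNAs that reached 10 in 3 or more libraries. The added 1 makes the fold changes of low miRNAs smaller where no library is at 0. Where a library is at 0, the fold change depends on the value added and can exceed the ratio of the means. For miR-18a-5p the log2 fold change was -2.42, while the means were 1.46 times apart. Single ratios and shares were compared by exact permutation tests. On simulated data, 40 of 40 miRNAs changed by a log2 fold of 3 were called, with 3 other calls among 346 tested. The simulation used a dispersion of 0.1, gave no library a composition of its own, and its fold exceeded the members' median of -1.35. It thus does not tell how often changes of the members' size would be called in these libraries. Other steps used Python 3.11.15. GC content and sequences came from RefSeq, matched by name for 368 of 413 miRNAs (89.1%).

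Named miRNAs are every member, the MCM7 and X-linked paralogs and miRNAs sharing a guide's seed, and the 5 most alike; miRNAs described as repressed by MYC are named where their groups did not overlap, chosen after their values were seen. The members and lists were chosen with earlier results of these data known. Alternatives were other pseudocounts, filters and scalings, no variance trend, the replicate number as a block and each library left out. Removal of a GC trend, and leaving out both vehicle replicate 1 and WA replicate 3, were chosen after seeing the data. Removing the GC trend also took out each library's mean level over the miRNAs with a sequence. A count model was not run. With 3 libraries a group, p-values measure the spread between these libraries.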

Additional observations from a re-analysis of the deposited data

How the results depend on the processing

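The number of miRNAs with a limma adjusted p under 0.05, 18, was 7 with a pseudocount of 0.1 and of 10, 53 with no filter, 0 when 10 was required in every library (29 at an unadjusted p under 0.05), 2 with the GC trend removed, 0 to 147 with each library left out (147 without WA replicate 3, and 0, with 46 to 52 at an unadjusted p under 0.05, without vehicle replicates 2 or 3 or WA replicates 1 or 2) and 235 with both vehicle replicate 1 and WA replicate 3 out. The number of members called, 0, was 0 to 1 with each library left out. With both of those libraries out it was 5 (miR-17-5p, miR-18a-3p, miR-19a-3p, miR-20a-5p and miR-92a-3p), all lower with WA, as were 46.5% of the miRNAs tested. It was 0 under every other alternative run, from 0 to 3 members having an unadjusted p under 0.05. The members' median log2 fold change, -1.35, was -0.90 when 10 was required in every library, where 7 members were tested, -1.84 with both libraries out, and from -1.66 to -0.65 with each left out, the smallest without WA replicate 1. With upper-quartile scaling the median of all tested moved from -0.91 to -0.66 and that of the members to -1.08.

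The direction held in every alternative run for miR-17-5p, miR-18a-5p, miR-19a-3p, miR-20a-5p, miR-19b-3p and miR-92a-1-5p. That of miR-17-3p was from -0.20 to 1.32 with each library left out, negative without WA replicate 3, and -0.36 with both libraries out. With the GC trend and each library's mean level removed together, miR-18a-3p turned to 0.64 and miR-92a-3p to 0.74. The arm ratio difference of miR-18a, -1.53 on the log2 scale, was from -3.50 to 0.34 with each library left out, positive without WA replicate 1. The share of miR-18a-5p among the guides, 0.13 percentage points higher with WA, was from -0.29 to 0.36 with each left out, lower without WA replicate 2. The number of hairpins whose arm ratios did not overlap between groups, 1, was 2 with a pseudocount of 10 and 1 to 3 with each library left out, 2 without vehicle replicate 1 and 3 without WA replicate 2. The causes were not tested. Same-numbered libraries did not deviate together (correlations of -0.07, 0.06 and -0.09). No pairing by number was thus seen, though 3 libraries a group cannot exclude one. With the replicate block, 0 members and 24 miRNAs had a limma adjusted p under 0.05. The 2 count-based tests set beforehand were not run. In WA replicate 1, 1 read is a normalized value of 5.80, which limits every member under about 17.4 there.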

Other observations

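MYC, which activates this cluster, is described as repressing another set of miRNAs, many of them tumour suppressors, and 16 of the 17 set as such were tested. By limma 0 of the 16 had an adjusted p under 0.05. At an unadjusted p under 0.05, 2 were higher with WA, beside 4.59% of all tested, and none was lower. For 5 of the 16 every WA library lay above every vehicle library (miR-15a-5p, miR-16-5p, miR-34a-5p, miR-146a-5p and miR-195-5p), beside 7.65% of all tested. The log2 fold change was below 0 for 4 of the 16, beside 60.6% of all tested. The median log2 fold change of the 16 was 0.96, against -1.35 for the 9 cluster members and -0.91 for all tested. The same libraries give both medians, and the difference between them was not tested. Over the 295 tested miRNAs with a RefSeq sequence, the slope on GC content also differed between the groups. It was 0.28 to 0.44 in the vehicle and -0.57 to 0.01 in the WA libraries. The part of base composition in the values of the 16 was not tested. MYC was not measured in these libraries, and its part in these values was not tested.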
